A study of Mus musculus with 2 samples.

Results

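The genes of the sarcoplasmic reticulum calcium pump and of the calcium store it fills were compared between skeletal muscle of WT and Gde5 skKO mice. They comprised the pumps Atp2a1 and Atp2a2, the pump inhibitors Sln and Pln, the store proteins Casq1, Casq2, Hrc, Srl and Calr, and the cytosolic buffer Pvalb. Members were the probes that are not controls and carry one of these 10 gene names, or an older name of the gene, on both arrays. This gave 16 of the 41111 probes measured on both arrays, all listed under the current symbol, and 9 of the 10 genes were among the 13598 genes tested.

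RNA came from the gastrocnemius (GAS) of male mice, 15 weeks old and on a normal diet. In the skKO mice, Cre driven by the human skeletal actin promoter (HSA-Cre) removes the floxed exon of Gde5 (Gpcpd1) in skeletal muscle fibres, and the methods describe the controls as Gde5 flox/flox littermates on the C57BL/6 background, so that both genotypes carry the floxed allele. Each of 2 Agilent two-colour arrays compared both genotypes directly, with WT in Cy3 and skKO in Cy5 on array 1 and the dyes swapped on array 2. The labels name 5 mice of each genotype but not whether RNA was pooled, whether both arrays held the same extracts, or whether the mice had been fasted or given glucose. No test across mice was therefore made, and each ratio is given per array with the error that the scanner software attaches to it, which covers spots of a hybridization and not the spread between mice.

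In striated muscle the sarcoplasmic reticulum is the membrane store that releases calcium through the ryanodine receptor to start a contraction. The SERCA pumps then return calcium to the lumen with the energy of ATP, held back by small membrane proteins such as sarcolipin and phospholamban. Inside the lumen, calsequestrin and other acidic proteins hold calcium at low affinity near the release sites, while parvalbumin binds it in the cytosol of fast fibres and speeds relaxation. Fast fibres mainly use the pump encoded by Atp2a1 and the calsequestrin encoded by Casq1, and slow and cardiac fibres use Atp2a2 and, in larger part than fast fibres, Casq2.

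Sln and Casq2 were the members called higher in Gde5 skKO muscle, by 1.79-fold and 1.59-fold in the mean of both arrays. None was called lower. A gene was called when the p-value of the Feature Extraction error model was under 0.05 on both arrays and both ratios, turned to skKO over WT, had the same direction. By this rule 2 of the 9 members tested were called higher, against 1.57% of all genes tested, and 0 lower, against 1.74%. The pumps themselves, Casq1, Hrc, Srl, Calr and Pvalb were not called. Of the 9 members, 5 had ratios above 0 on both arrays, 1 had ratios below 0 on both, and 3 had ratios of opposite sign, where 29.2% and 25.3% of all genes were above and below 0 on both. Both skKO signals lay above both WT signals for 4 members (Atp2a1, Sln, Casq2 and Hrc), as they did for 21% of all genes. The median mean log2 ratio was 0.17 over the members and 0.01 over all genes.

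Limma's moderated test over both arrays, made on background-corrected and loess-normalized ratios, gave a count that depended more on the threshold. At an unadjusted p under 0.05 it called 3 members higher (Sln, Casq2 and Hrc) and 1 lower (Pvalb), against 4.25% and 4.27% of all genes. After Benjamini-Hochberg adjustment over all genes, limma called Sln alone among the members.

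**Figure D1:**
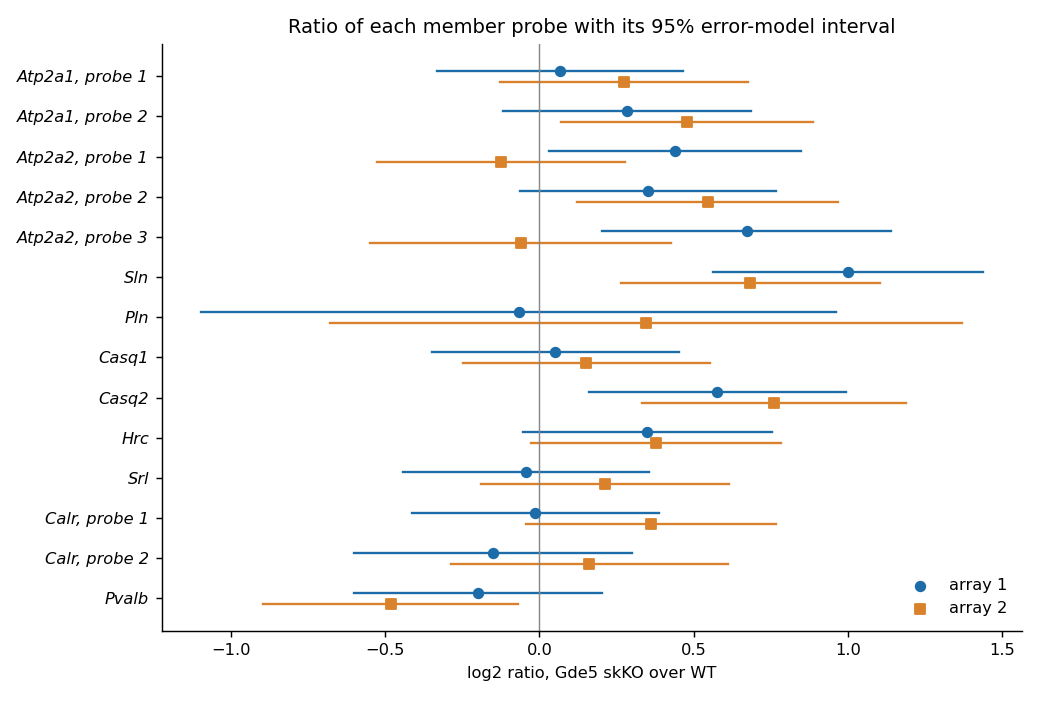
log2 ratio of Gde5 skKO over WT (x axis) for each member probe with signal well above background in at least 1 channel (y axis), on array 1 (blue circles) and array 2 (orange squares), with bars for the 95% interval of the scanner software's error model. Only for Sln and Casq2 did both intervals lie above 0. Atp2a2 probes 1 and 3, both Calr probes, Srl and Pln changed sign between the arrays. Within a gene, probe 1 is the brightest.

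The promoters of Casq2, called higher, and of Casq1, its fast-fibre counterpart, are shown first because Casq2 was called and its paralog was not, with that of Pvalb, whose ratio was below 0 on both arrays. RefSeq windows (GRCm38.p6) of the 250 bases before the gene start were found for 7 of the 10 members, and Sln, Atp2a2 and Srl had no entry. Capitals mark E-boxes (CANNTG, bound by myogenic factors) and MEF2 boxes, matched on both strands, with no overlap between matches. The Casq2 window is chr3:102086165-102086414 on the plus strand, the Casq1 window chr1:172219896-172220145 and the Pvalb window chr15:78206401-78206650, both on the minus strand.
Casq2: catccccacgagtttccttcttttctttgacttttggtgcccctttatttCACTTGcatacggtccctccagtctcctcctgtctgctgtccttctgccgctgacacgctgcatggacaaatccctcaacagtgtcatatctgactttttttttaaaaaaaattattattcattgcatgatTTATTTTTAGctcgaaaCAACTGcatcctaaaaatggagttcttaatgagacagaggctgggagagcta
Casq1: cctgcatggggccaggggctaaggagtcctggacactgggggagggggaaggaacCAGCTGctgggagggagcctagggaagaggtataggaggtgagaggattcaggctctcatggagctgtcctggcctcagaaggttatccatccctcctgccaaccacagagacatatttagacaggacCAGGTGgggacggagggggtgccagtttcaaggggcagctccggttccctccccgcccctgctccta
Pvalb: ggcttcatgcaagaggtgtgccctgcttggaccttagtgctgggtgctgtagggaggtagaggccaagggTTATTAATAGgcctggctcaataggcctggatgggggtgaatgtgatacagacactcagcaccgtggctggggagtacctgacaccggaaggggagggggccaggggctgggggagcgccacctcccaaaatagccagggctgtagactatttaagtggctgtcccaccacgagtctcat

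The Casq2 window held 2 E-boxes, starting 200 and 52 bases before the gene start, and 1 MEF2 box starting 69 bases before it. The Casq1 window held 2 E-boxes, at 195 and 67 bases, and no MEF2 box. The Pvalb window held a MEF2 box at 180 bases and no E-box. A further Pvalb window, at chr15:78204238-78204487, had 1 E-box. Of the 32851 windows in the table, 66.2% held an E-box and 2.92% a MEF2 box, while TATAAA (12.4%) was found among the members in the Pln window and the CArG box (1.47%) in none. E-boxes were also present in the windows of Atp2a1 (1), Calr (4), Hrc (1) and Pln (1). These matches describe the letters of the windows and are no evidence of binding.

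Sarcolipin, the product of Sln, binds the pump within the membrane and lowers the calcium it moves per ATP. Its bright probe (A_52_P413395, chr9:53651904-53651963 of mm8, plus strand) had a processed signal of 3498 in skKO and 1748 in WT on array 1, and of 2620 in skKO and 1631 in WT on array 2. Both skKO values were above both WT values. The log2 ratio was 1.00 ± 0.22 (error-model error) on array 1 and 0.68 ± 0.21 on array 2, with Feature Extraction p-values of 7.71e-06 and 0.00138. The mean was 0.84 ± 0.22 (SD over 2 arrays), the 104th highest of the 13598 genes, and 0.78 with limma ratios, at a limma adjusted p of 0.0232. The methods' test of the channel values did not call Sln. The other Sln probe (A_51_P297498, chr9:53652292-53652351) was not well above background in any of the 4 channels, so that the change in Sln rests on 1 probe.

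Phospholamban, the inhibitor best known from the heart, could not be judged. The Pln probe (A_52_P22324, chr10:53033553-53033612, plus strand) had signals of 32.9 in skKO and 34.4 in WT on array 1 and of 46.0 and 36.2 on array 2, and was well above background in 1 of 4 channels. Its ratios of -0.07 ± 0.53 and 0.35 ± 0.52 had errors larger than themselves. A difference in Pln was not detectable at this signal.

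**Figure D2:**
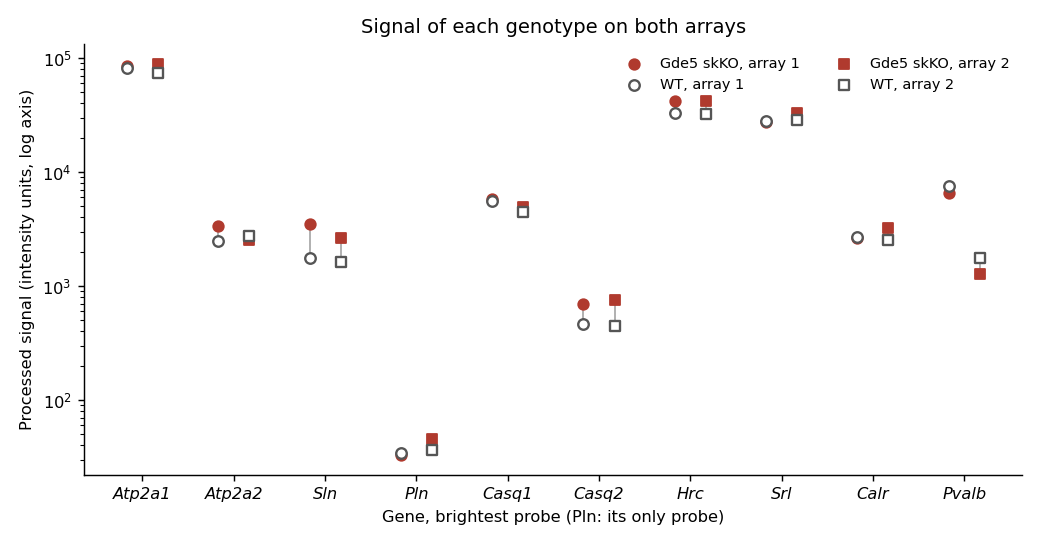
Processed signal (y axis, log scale) of the probe that stands for each member (x axis) in Gde5 skKO (filled red) and WT (open grey) on array 1 (circles) and array 2 (squares). Both skKO points lie above both WT points for Sln, Casq2, Hrc and Atp2a1, and the Pvalb points of array 2 lie far below those of array 1. Signals of different probes are not comparable as levels, so only differences within a gene can be read.

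Among the pumps, Atp2a1 encodes SERCA1 of fast fibres. Its brightest probe (A_52_P686130, chr7:126237732-126238075, minus strand, a 60-base probe spread over 344 bases of the genome) had signals of 84927 in skKO and 81093 in WT on array 1 and of 89583 and 74049 on array 2. Its log2 ratios were 0.07 ± 0.20 and 0.27 ± 0.21, with a mean of 0.17 ± 0.15 (SD over 2 arrays). The second probe (A_51_P244856, chr7:126239337-126239396) had signals of 38152 and 31342, then 44872 and 32204, and ratios of 0.28 ± 0.21 and 0.48 ± 0.21 with Feature Extraction p-values of 0.168 and 0.0218. Both probes were above 0 on both arrays, and neither was called.

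Atp2a2 encodes SERCA2, of slow fibres, heart and, as another splice form, most other cells. Its brightest probe (A_51_P451075, chr5:122714312-122714371, minus strand) had signals of 3396 in skKO and 2503 in WT on array 1, but 2536 and 2765 on array 2. The ratios were 0.44 ± 0.21 and -0.12 ± 0.20, so that the Cy5 channel was the brighter on both arrays, whichever genotype it held. The probe at chr5:122717458-122717517 (A_52_P569001) behaved likewise, with ratios of 0.67 and -0.06. The probe at chr5:122721268-122721327 (A_52_P168097) had signals of 392 and 307 on array 1 and 532 and 365 on array 2, and ratios of 0.35 ± 0.21 and 0.55 ± 0.22, with Feature Extraction p-values of 0.0961 and 0.0113. The remaining probe, at chr5:122757362-122757421, was not well above background in any channel. The probes of Atp2a2 thus disagreed on array 2, and the mean was 0.16 for the brightest and 0.30 over the probes measured.

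The difference between the pumps, Atp2a2 minus Atp2a1 in log2 ratio, was 0.37 (95% interval -0.20 to 0.94) on array 1 and -0.40 (-0.97 to 0.17) on array 2. Neither interval lay apart from 0, and the sign turned between the arrays.

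Calsequestrin is the main calcium-binding protein of the lumen and has a pair of paralogous genes. The Casq2 probe (A_51_P174696, chr3:102274965-102275025, plus strand) had signals of 700 in skKO and 470 in WT on array 1 and of 754 and 446 on array 2, with both skKO values above both WT values. Its log2 ratios were 0.58 ± 0.21 and 0.76 ± 0.22, with Feature Extraction p-values of 0.00669 and 0.000501. The mean of 0.67 ± 0.13 (SD over 2 arrays) was the 206th highest of all genes, and 0.48 with limma ratios, at a limma adjusted p of 0.0981.

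The Casq1 probe (A_51_P199104, chr1:174047146-174048649, minus strand) had signals of 5828 in skKO and 5625 in WT on array 1 and of 4928 and 4436 on array 2. The ratios of 0.05 ± 0.20 and 0.15 ± 0.20 were within their errors. The difference, Casq2 minus Casq1, was 0.53 (95% interval -0.05 to 1.10) on array 1 and 0.61 (0.02 to 1.19) on array 2, with a mean of 0.57, and 0.37 with limma ratios. The interval of array 1 included 0 and that of array 2 did not.

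Hrc, the histidine-rich calcium-binding protein that links the store to the release complex, had the next highest ratio (A_51_P267751, chr7:45205939-45206196, plus strand). Its signals were 41850 in skKO and 32832 in WT on array 1, and 41964 and 32320 on array 2. The ratios of 0.35 ± 0.21 and 0.38 ± 0.21 were close to each other, but their Feature Extraction p-values were 0.0900 and 0.0687 and Hrc was not called. The mean was 0.36 ± 0.02 (SD over 2 arrays), or 1.29-fold. With the loess ratios that limma used, the arrays lay further apart, at 0.11 on array 1 and 0.59 on array 2. The limma adjusted p was 0.466. On each array a ratio had to reach 0.40 to 0.44 for any tested member to be called, which was above the Feature Extraction ratios of Hrc.

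Srl encodes sarcalumenin, a lumenal protein that steadies the pump. Its probe (A_51_P332742, chr16:4395714-4395773, minus strand) had signals of 27418 in skKO and 28261 in WT on array 1 and of 33032 and 28504 on array 2, giving ratios of -0.04 ± 0.20 and 0.21 ± 0.20. Calr encodes calreticulin, the calcium-binding chaperone of the endoplasmic reticulum. Its brightest probe (A_51_P416419, chr8:87732398-87732457, minus strand) had signals of 2660 and 2686 on array 1 and of 3247 and 2529 on array 2, giving -0.01 ± 0.20 and 0.36 ± 0.21. The second Calr probe (A_52_P672212, chr8:87734735-87734794) had ratios of -0.15 and 0.16. The groups overlapped for both Srl and Calr, and both changed sign between arrays.

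Pvalb encodes parvalbumin, the calcium buffer of fast fibres, and was the member with the lowest ratio. Its probe (A_51_P500156, chr15:78018472-78018531, minus strand) had signals of 6533 in skKO and 7504 in WT on array 1 and of 1265 and 1767 on array 2. The skKO value was the lower on each array. The ratios were -0.20 ± 0.20 and -0.48 ± 0.21, with Feature Extraction p-values of 0.329 and 0.0221, so that Pvalb was not called. The mean was -0.34 ± 0.20 (SD over 2 arrays), or 0.79-fold, with a limma adjusted p of 0.523.

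The Pvalb signal also differed between the arrays in both genotypes. From array 1 to array 2 it fell by 2.37 in skKO and fell by 2.09 in WT on the log2 scale, against a median change of 0.05 over the 12325 genes well above background in every channel. This was the 7th lowest change of these genes, and the lowest with normexp background correction. Among the other members the change lay between -0.29 and 0.14. With normexp correction it was -2.71 for Pvalb, -0.89 for Casq1 and -0.64 for Sln, the 72nd and 139th lowest for the latter pair, and the other members lay between -0.31 and 0.10. The part these shifts play in the ratios was not tested.

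**Figure D3:**
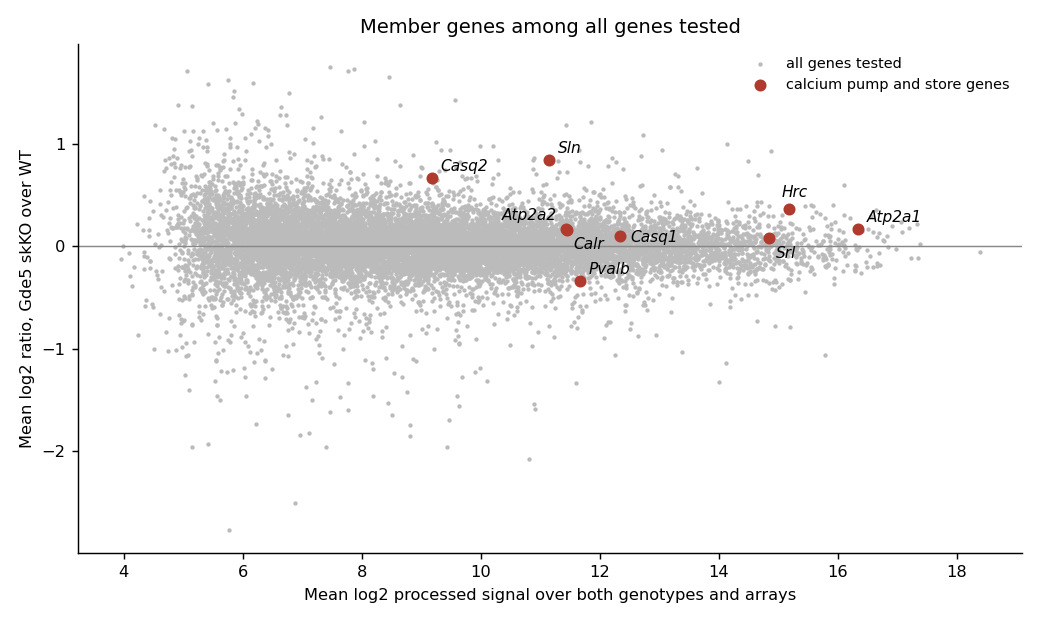
Mean log2 ratio of Gde5 skKO over WT (y axis) against the mean log2 processed signal over both genotypes and arrays (x axis) for the 13598 genes tested (grey), with the 9 tested members in red. Sln at 0.84 and Casq2 at 0.67 lie above the bulk of the genes, Pvalb at -0.34 lies below 0, and the remaining members lie between 0.08 and 0.36; the Atp2a2 and Calr points overlap.

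Other genes of calcium handling were taken from lists written from general knowledge. Of 60 such genes 52 were tested. Of these, 0 were called higher, against 1.57% of all genes, and 2 lower, against 1.74%. Their median mean ratio was -0.01, with lists that differed among themselves. The lower genes were Camk2a, a kinase that acts on phospholamban, at -0.57 (-0.53 and -0.61 on the arrays), and Itpr1, the inositol trisphosphate receptor that releases calcium from the reticulum, at -1.59 (-1.44 and -1.73). Of 11 other genes of pumps and pump regulators, 1 was called lower and 0 higher, with a median of 0.02. Of 18 genes of calcium release and store refilling, 1 was called lower and 0 higher, with a median of -0.08. In this list 11 of 18 were below 0 on both arrays, against 25.3% of all genes, and 6 were lower at an unadjusted limma p under 0.05, against 4.27% of all genes, of which 1 remained after adjustment. None of 9 genes of calcium extrusion and cytosolic buffering was called, with a median of 0.02. In this list Calm3 was at -0.36, Atp2b1 at -0.32 and the exchanger Slc8a3 at 0.34. None of 14 calcium-binding proteins and chaperones of the lumen was called either, with a median of 0.04 and Pdia3 at -0.32, Pdia4 at -0.30, Sdf4 at 0.27 and Calu at 0.21.

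Fibre and cell type genes were read beside the members, since Sln, Casq2 and Atp2a2 are more abundant in slow than in fast mouse fibres. Of 9 slow-fibre genes 3 were called higher and 0 lower, with a median of 0.40. They were Myl2, the slow regulatory light chain, at 0.84, Csrp3, a Z-disc protein, at 0.82, and Tnni1, slow troponin I, at 0.67. Their summed signal was 147420 to 149190 in skKO and 105036 to 106791 in WT, and 8 of 9 were above 0 on both arrays. Of 10 fast-fibre genes 0 were called, 6 were below 0 on both arrays and the median was -0.10, with summed signals of 577052 to 623324 in skKO and 632142 to 654791 in WT. The named fast-fibre genes were Myh1 at 0.31, Tnnc2 at -0.27, Myh4 at -0.20 and Actn3 at -0.19. Bulk RNA cannot tell fewer cells of a type from less RNA per cell, and the part of the fibre genes in the ratios of Sln and Casq2 was not tested.

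**Figure D4:**
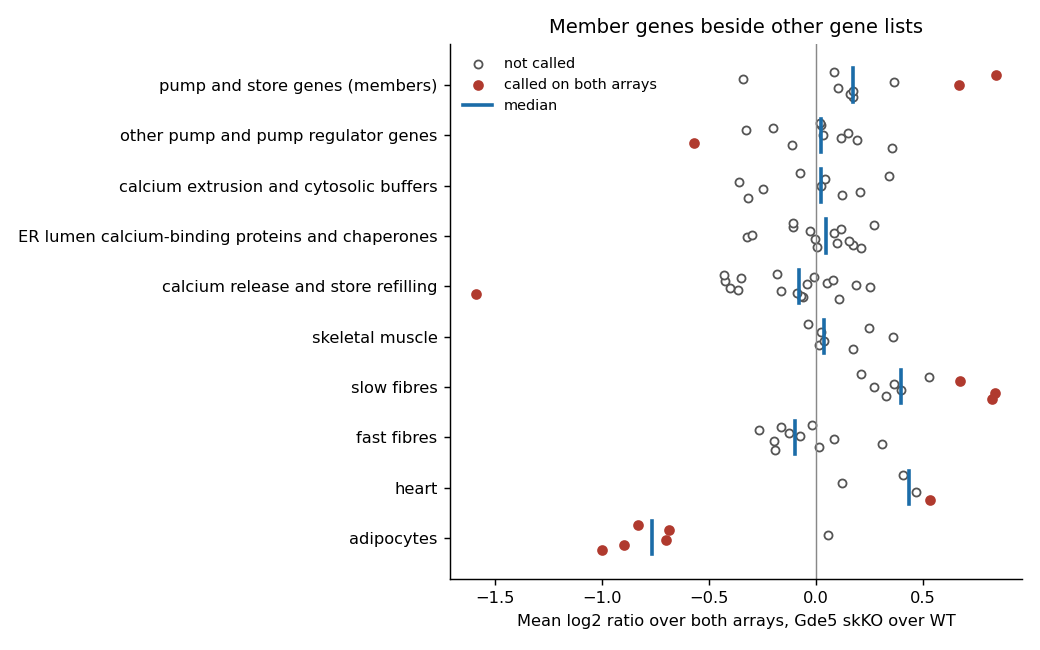
Mean log2 ratio of Gde5 skKO over WT over both arrays (x axis) for each tested gene (points, filled red where called on both arrays) of the member set, 4 other calcium lists and 5 marker lists (y axis), with the list median as a blue bar. The members have a median of 0.17 with Sln and Casq2 called, the slow-fibre genes 0.40, the fast-fibre genes -0.10 and the adipocyte genes -0.77.

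Among heart genes Myh6 was called higher at 0.53, with a list median of 0.44 that was 0.05 with limma ratios, and the atrial markers Nppa and Myl7 were not well above background. Of 6 adipocyte genes 5 were called lower (Adipoq at -0.97 and -1.03 on the arrays, and in the mean Cfd at -0.90, Retn at -0.83, Cidec at -0.70 and Plin1 at -0.69), with a median of -0.77 and Fabp4 at 0.05. With limma ratios the median was -0.44, Retn was at -0.34 and Plin1 at -0.33. Summed adipocyte signals ran from 41144 to 43232 in skKO and from 43777 to 45066 in WT, most of it from Fabp4. Without Fabp4 they ran from 4365 to 4376 in skKO and from 7879 to 8139 in WT, and the part of fat in the member ratios was not tested. No gene was called in the lists of smooth muscle (6 tested, median 0.12), blood (3, -0.23), leukocytes (5, -0.18), fibroblasts and tendon (8, -0.17), endothelium (5, -0.09), nerve (6, -0.09) or liver (3, -0.39). With limma ratios these medians lay between -0.17 and 0.10. At an unadjusted limma p under 0.05, 2 smooth muscle genes were higher, as was 1 gene of fibroblasts and tendon. In endothelium 1 gene was higher and 1 lower, and in nerve 1 was lower. After adjustment 0 remained in these lists. Genes of skeletal muscle itself had a median of 0.04 over 7 tested, with none called and Mb at 0.36. Their summed signal was 421578 to 440140 in skKO and 389187 to 396851 in WT. Without Mb, the brightest, it was 303499 to 328203 in skKO and 301965 to 305042 in WT. The labelled tissue thus carried its markers in both genotypes.

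The knockout and the arrays were checked over the whole series. Of the 4 Gpcpd1 probes 3 were called lower, with mean log2 ratios from -3.18 to -2.93, and the remaining probe was at -0.26 and not called. That probe is the brightest, so the rule of the brightest probe did not call the deleted gene. Between 44.6% and 53.2% of spots were well above background in a channel, the software marked 164 and 200 of 43379 spots as outliers, and no member probe was saturated or left out.

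Of the 7 other ways of processing both arrays, those that kept outlier or debris spots, or took unsaturated probes, could not move a member, because no member probe was concerned, and the series table repeats the deposited ratio. Averaging the probes could move only genes with several measured probes. The values that follow are means of both arrays, over the loess ratios with and without background correction and the ratios as reported. Sln lay between 0.78 and 0.84, Casq2 between 0.48 and 0.67 and Hrc between 0.35 and 0.36. Casq1 lay between 0.10 and 0.11, Srl between 0.08 and 0.09, and Pvalb between -0.34 and -0.26. With the averaged probes included, Atp2a1 lay between 0.17 and 0.28, Atp2a2 between 0.14 and 0.30, and Calr between 0.09 and 0.17. No member changed sign in the settings that could move it. The Feature Extraction ratios of the arrays taken singly spread further than these means for each member except Casq2.

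**Figure D5:**
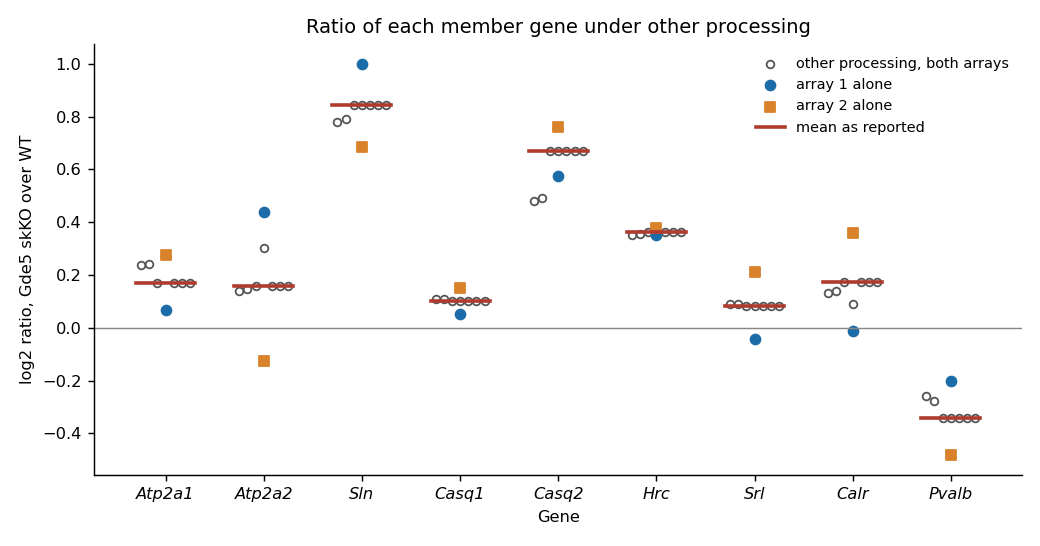
log2 ratio of Gde5 skKO over WT (y axis) for each tested member (x axis) as the mean of both arrays (red bar), under 7 other ways of processing both arrays (open points) and for each array alone (blue circle, orange square). The single-array points are Feature Extraction ratios. Among the points drawn, Sln lies at 0.68 or above and Casq2 at 0.48 or above. Atp2a2, Srl and Calr fall on both sides of 0 when the arrays are taken singly. Loess ratios of single arrays are not drawn, and went down to 0.63 for Sln (array 2) and 0.42 for Casq2 (array 1).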

How the data were processed

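Gene expression was measured on 2 two-colour arrays of GAS muscle with swapped dyes, from 1 slide and 1 scan. Per the file headers, Feature Extraction version 9.5.3.1 read the images, and the deposited log10 ratio of Cy5 over Cy3 follows background subtraction and dye normalization. The deposited files also hold the error and p-value of each ratio from the software's error model, and the intensity of each spot and of its local background per channel. The log10 ratio also stands in a deposited series table, in which array 2 keeps the direction of its dyes.

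Ratios were put on the log2 scale, and each array was turned so that Gde5 skKO stood over WT. Control spots, spots with outlier marks and spots whose local background exceeded 5 times the median of the array (13 on array 1, 8 of them without an outlier mark) were left out. Probes were named through RefSeq, and 8075 kept the array's name. A gene was represented by its brightest probe among those with 1 channel or more well above background on each array. Probe coordinates are those of the array annotation (mm8) and are not mixed with the GRCm38.p6 promoters. The median ratio over all genes was 0.01 on array 1 and 0.02 on array 2. Precision is limited by there being 2 arrays.

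The members, lists and rules were chosen with earlier results of these data known. Genes named besides the members were those called in each list, or otherwise up to 4 with the largest mean ratios in size, of which 1 is not reported here. Named lists comprised other calcium genes, fibre types and other cell types. Alternatives were normexp (offset 50) with loess and limma's moderated test in limma 3.58.1 under R 4.3.3, no background correction, the series table, other filters, probes and thresholds, leaving out either array, and the methods' t-test of channel values. Tables were handled in pandas 2.3.3 and numpy 2.4.6 under Python 3.11.15, with scipy 1.17.1 for distributions, and plots were drawn in matplotlib 3.10.9. The calls were checked on simulated ratios with known changes.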

Additional observations from a re-analysis of the deposited data

How the results depend on the processing

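Sln and Casq2 were called higher, and no member lower, with normexp and loess ratios, either filter on dim probes, and a p under 0.01. Keeping outlier or debris spots, taking unsaturated probes or reading the series table could not change a member, since no member probe was concerned and the table repeats the ratio. Adjusted error-model p-values on both arrays left 1 member (Sln), as did limma's adjusted test. The methods' t-test called 2 members higher (Casq2 and Hrc) and 0 after adjustment. Limma's unadjusted test added Hrc and 1 lower member, Pvalb. With each array alone, 2 to 3 members were higher and 0 to 1 lower. In the Feature Extraction ratios, Sln then ranged from 0.68 to 1.00 and Casq2 from 0.58 to 0.76. Hrc ranged from 0.35 to 0.38 (0.11 to 0.59 with loess ratios), Atp2a1 from 0.07 to 0.27 and Casq1 from 0.05 to 0.15. Atp2a2 ranged from -0.12 to 0.44 (array 1 alone called it higher), Srl from -0.044 to 0.21, Calr from -0.014 to 0.36 and Pvalb from -0.48 (array 2 alone called it lower) to -0.20. The cause was not tested.

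Over all genes, 214 were higher and 236 lower. The counts were 107 and 127 at a p under 0.01, 50 and 76 with adjusted p-values on both arrays, 578 and 580 with limma's unadjusted test, 39 and 70 with its adjusted test, 617 and 572 with the methods' t-test, and 0 and 0 after its adjustment. Each array alone gave 928 to 970 higher and 724 to 915 lower, since fewer arrays had to pass. A slide or scan block was not run, because both arrays share 1 slide and 1 scan. No further pairing was added, because the labels give 1 group of arrays. Each array already pairs the genotypes, and limma's test was made on these within-array ratios.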
